A study of Mus musculus with 6 samples.

Results

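Messenger RNA of the genes that make, move and export cholesterol was measured in satellite cells (muscle stem cells) from mice with and without a deletion in Lmna, the gene of the nuclear lamins A and C. The set holds 33 of the 39059 genes counted: 19 of cholesterol synthesis, 5 that control the transcription factors SREBP, 4 of intracellular transport and storage, and 5 of the nuclear receptor LXR and of cholesterol efflux. The genes were chosen by their place in the pathway, from a list proposed with the comparison of these 6 libraries already known, so their differences between genotypes are given as a description of the chosen genes and not as evidence for the choice. The 3 libraries called HOM below came from C57BL/6J mice of genotype Lmna Δ8-11 -/-, which lack exons 8 to 11 of Lmna on both copies, and the 3 called WT from C57BL/6J mice of genotype Lmna Δ8-11 +/+. Cells were sorted by flow cytometry from hind-limb muscle at postnatal day 19, and total RNA depleted of ribosomal RNA was sequenced. The labels name 3 mice per condition but do not tie a mouse to a library, so the p-values measure the spread between these libraries, which for libraries not shown to come from separate animals may be technical.

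Cells build cholesterol from acetyl-CoA through mevalonate, squalene and lanosterol. When membranes of the endoplasmic reticulum run low in sterol, the escort protein SCAP carries SREBP to the Golgi apparatus, where it is cut and released to switch on the synthesis genes. When sterol is plentiful, INSIG proteins hold SCAP back, and oxysterols bind LXR, which turns on the efflux pumps ABCA1 and ABCG1, the ubiquitin ligase MYLIP that removes lipoprotein receptors, and the Srebf1 gene. The same pathway supplies the farnesyl group that is attached to prelamin A, the precursor of lamin A.

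SREBP binds with the helper factors NF-Y and Sp1 close to gene starts, so the sequence upstream of the called synthesis and SREBP genes is shown first, for the 6 with the smallest p in the comparison below. RefSeq sequences (GRCm38.p6) of the 250 bases before each annotated start were matched by symbol to 27 of the 33 genes, not to Fdps, Fdft1, Sqle, Stard4, Npc1 or Abcg1. They were searched on both strands for TCACNCCAC (the core of a sterol regulatory element), CCAAT (bound by NF-Y) and GGGCGG (bound by Sp1), and matches are printed in capitals, read along the strand of the gene (a CCAAT on the other strand reads ATTGG, and a GGGCGG reads CCGCCC) and with 0 bases shared between matches. The Hmgcs1 window (chr13:119690101-119690350, plus strand) is printed because it was the only one of the 27 with a match to TCACNCCAC, 137 to 129 bases upstream of the start. The Sc5d window (chr9:42264301-42264550, minus strand) shows NF-Y and Sp1 matches without it. For Srebf1, which has 3 annotated starts, the window of the innermost start (chr11:60210472-60210721, minus strand) is printed, the only one of the 3 that held both CCAAT and GGGCGG.
Hmgcs1: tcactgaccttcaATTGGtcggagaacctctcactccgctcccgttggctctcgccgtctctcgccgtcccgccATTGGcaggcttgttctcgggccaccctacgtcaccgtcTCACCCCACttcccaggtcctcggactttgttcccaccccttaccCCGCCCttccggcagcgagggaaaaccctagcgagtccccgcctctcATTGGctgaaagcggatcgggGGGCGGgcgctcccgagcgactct
Sc5d: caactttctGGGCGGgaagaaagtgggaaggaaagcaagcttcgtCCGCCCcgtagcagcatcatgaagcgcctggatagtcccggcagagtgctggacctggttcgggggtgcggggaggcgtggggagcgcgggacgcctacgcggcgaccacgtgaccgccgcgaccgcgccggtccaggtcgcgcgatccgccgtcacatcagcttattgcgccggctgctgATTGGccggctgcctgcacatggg
Srebf1: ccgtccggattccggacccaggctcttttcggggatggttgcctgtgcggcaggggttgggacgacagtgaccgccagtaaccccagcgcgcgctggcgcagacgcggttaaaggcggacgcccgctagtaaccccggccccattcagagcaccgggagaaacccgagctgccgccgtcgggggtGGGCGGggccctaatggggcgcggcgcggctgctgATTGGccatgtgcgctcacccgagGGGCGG

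The windows of Cyp51, Msmo1 and Nsdhl overlap annotated exons, so only 25 bases around a CCAAT match are printed, with that match in capitals. Cyp51 (minus strand) had 1 match, at chr5:4104712-4104736. Msmo1 (minus strand) had 3, of which the nearest to the start is shown, at chr8:64733619-64733643. Nsdhl (plus strand) had 2, of which the nearest to the start is shown, at chrX:72918491-72918515.
Cyp51: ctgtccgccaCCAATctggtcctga
Msmo1: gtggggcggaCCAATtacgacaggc
Nsdhl: gactagcctcATTGGgcaaaatcat

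CCAAT was found in 22 of the 27 members with a window and in 37.5% of 27025 mouse genes with windows of the same length. Among synthesis genes it was found in 15 of 16: in 9 of 9 that were called lower and in 6 of 7 that were not called. GGGCGG was likewise found in 22 of 27 members, 14 of 16 synthesis genes and 35.4% of all genes, and TCACNCCAC in 1.22% of all genes. The 27025 genes were not limited to those with enough reads to be tested here, as all members were. The sets are therefore unlike, and nothing is read from the gap. Of the LXR and efflux genes with a window, 1 of 4 (Mylip) held CCAAT. A match is a description of the letters and does not show binding.

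The gene counts summed to between 6613636 and 9552751 reads per library. Expression is given as CPM, a gene's reads scaled to the library total after TMM correction, and differences as log2 fold changes of HOM minus WT with their standard error (SE) from edgeR's quasi-likelihood test, with p-values adjusted by Benjamini-Hochberg over the 14099 genes tested. A gene is called where its adjusted p is under 0.05. Lmna itself had 436, 375 and 451 CPM in HOM replicates 1, 2 and 3 (the order of every such list below) and 842, 939 and 1060 CPM in WT, a log2 fold change of -1.17 (SE 0.144, edgeR adjusted p = 0.001), but the count also covers exons outside the deletion and so checks the labels only in part. The 8 satellite cell markers examined, Pax7 and Myf5 among them, were detected in every library, and their summed level (1050 to 1446 CPM in HOM, 1859 to 1892 CPM in WT) was below that of 7 myelinating Schwann cell markers (4303 to 7439 CPM over the 6 libraries) and of 6 pericyte and smooth muscle markers (9522 to 13380 CPM). These sums are not scaled to gene length and cover different numbers of genes, so they do not give the shares of the cell types. These are bulk samples, in which fewer cells of a type and less RNA per cell cannot be told apart. Exons of Scap (985 bases), Fdft1 (774), Npc1 (511), Lss (381), Ggps1 (257), Cyp51 (166) and Srebf1 (109) overlap those of a counted gene on the opposite strand. The genes that overlap Scap and Lss had 6 and 0 reads over the 6 libraries. Those that overlap Fdft1 (Ctsb), Cyp51 (Akap9), Ggps1 (Arid4b), Srebf1 (Rai1) and Npc1 (Rmc1) had 14384, 10057, 6496, 1230 and 908 reads over their whole length. Exons of Fdps (1124, with Gm43738), Tm7sf2 (532), Srebf1 (66) and Nr1h3 (34) overlap those of a counted gene on the same strand. The gene that overlaps Tm7sf2 (Vps51) had 792 reads, against 198 for Tm7sf2. All these counts are uncertain to that extent. Reads of Y-linked genes were found in HOM replicate 2, WT replicate 2 and WT replicate 3 (3074 to 4831 reads) and were at most 3 in the other libraries, so HOM replicate 2 did not come from the animals of the other HOM libraries alone, nor WT replicate 1 from those of the other WT libraries. HOM replicate 2 and WT replicate 2 also had more reads of the ribosomal RNA-overlapping gene Gm42418, at 1.30 and 1.39% of gene reads against at most 0.18% in the other libraries.

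In HOM libraries 10 of 19 synthesis genes were lower and 5 of 5 LXR and efflux genes higher. All 33 genes passed the filter on low counts. Of the 33, 13 were called lower, 6 higher and 14 were not called. The 13 became 7 without HOM replicate 1 or WT replicate 2 and 8 without WT replicate 3. Over all 14099 genes tested, 11.5% were called lower and 9.67% higher. In 15 of the 33 every HOM library lay below every WT library, a pattern seen in 20.6% of all genes, and in 6 every HOM library lay above every WT library, seen in 20.2% of all genes. Because the genes were proposed with this comparison known, nothing is read from the excess over those shares. The 13 lower genes were 10 synthesis enzymes with Srebf2, Insig1 and Stard4. The 6 higher genes were the 5 of the LXR and efflux list with Srebf1. The median log2 fold change was -0.725 over the 19 synthesis genes and 1.71 over the 5 LXR and efflux genes, with -0.00382 over all genes tested. At least 2-fold differences were found in 5 of the lower genes (Cyp51, Msmo1, Nsdhl, Hmgcs1 and Stard4) and in 4 of the higher genes (Nr1h3, Abcg1, Abca1 and Srebf1).

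**Figure D1:**
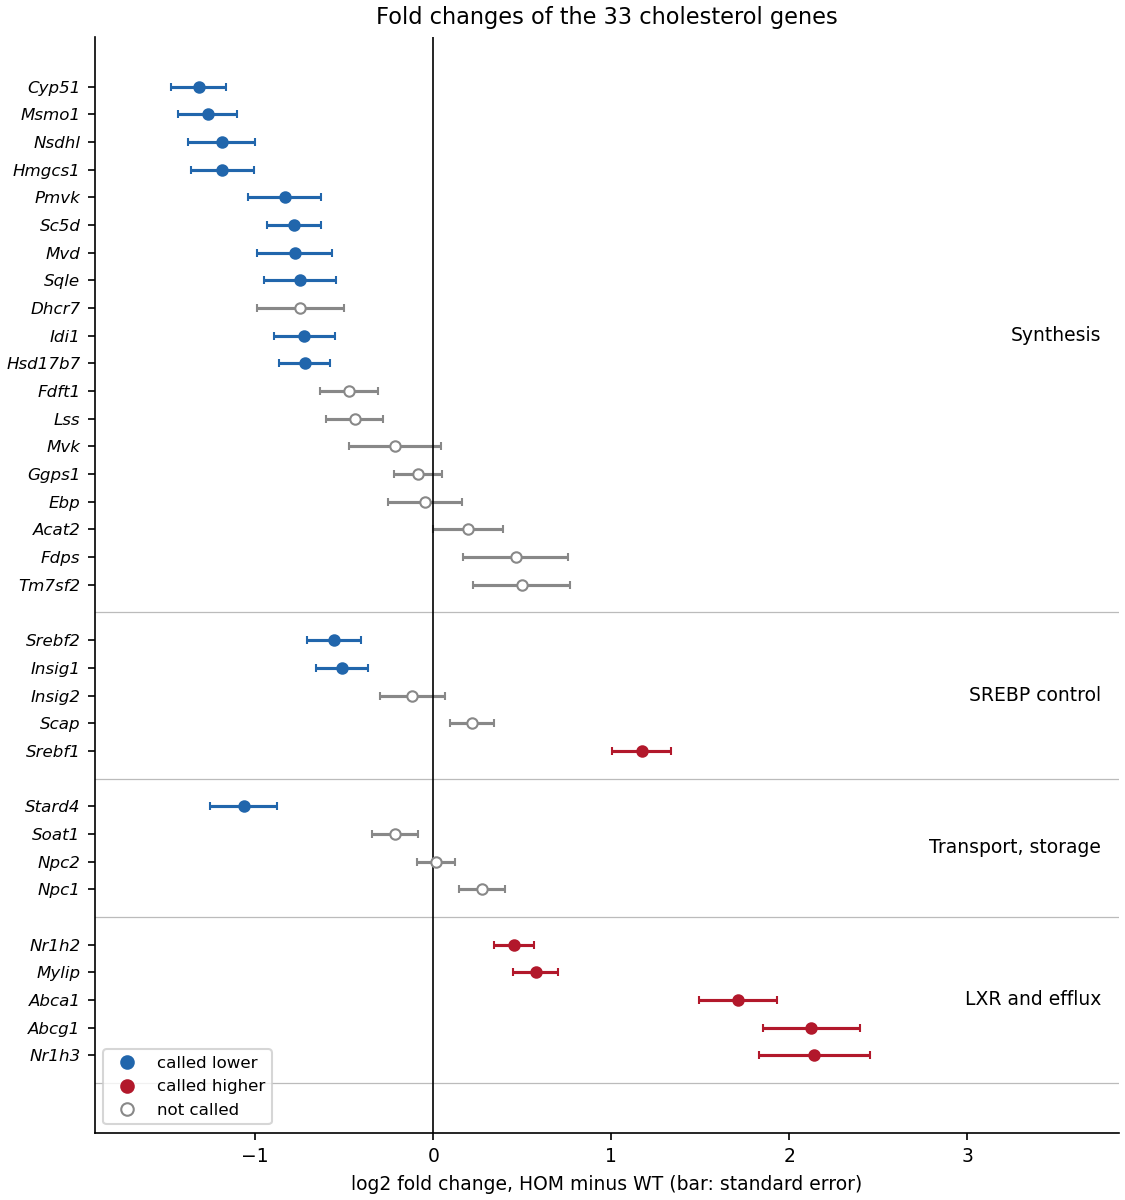
Log2 fold change of HOM minus WT for each of the 33 genes, by list, with bars of 1 standard error from edgeR; filled points are called at an adjusted p under 0.05. The 10 called synthesis genes lie between -0.72 and -1.32 and the 5 LXR and efflux genes between 0.45 and 2.14.

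In the arm from acetyl-CoA to the isoprenoid diphosphates, 4 of 8 genes were called lower. Hmgcs1, the cytosolic HMG-CoA synthase that condenses acetyl-CoA units before mevalonate is made, lies at chr13:119690379-119708260 (GRCm38, plus strand). It had 249, 264 and 264 CPM in the HOM libraries and 428, 644 and 694 CPM in the WT libraries. All 3 HOM libraries were below the lowest WT library, WT replicate 1. The means were 259 ± 8.43 CPM in HOM and 589 ± 141 CPM in WT (SD, n = 3 each), 2.28-fold lower in HOM (log2 fold change -1.19, SE 0.177, edgeR adjusted p = 0.00237).

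The 3 enzymes that turn mevalonate into isopentenyl diphosphate are Mvk, Pmvk and Mvd. Pmvk, phosphomevalonate kinase, had 12.3, 12.4 and 16.5 CPM in HOM and 20.7, 32.0 and 21.2 CPM in WT (log2 fold change -0.84, SE 0.205, edgeR adjusted p = 0.0183). Mvd, the decarboxylase that follows it, was low in both groups, at 4.20, 5.30 and 4.97 CPM in HOM and 7.52, 9.38 and 8.13 CPM in WT (log2 fold change -0.78, SE 0.21, edgeR adjusted p = 0.0265). The groups did not overlap for either gene. Mvk, mevalonate kinase, which acts first of the 3, was not called: 7.41 to 11.3 CPM in HOM and 8.51 to 14.6 CPM in WT, with a log2 fold change of -0.22 (SE 0.257). Idi1, which interconverts the isopentenyl and dimethylallyl diphosphates, had 35.9, 36.3 and 38.4 CPM in HOM and 44.1, 70.9 and 68.2 CPM in WT (log2 fold change -0.73, SE 0.172, edgeR adjusted p = 0.0159). Its 3 HOM libraries were nearly level, while WT replicate 1 stood well below the other WT libraries.

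The other members of this arm were not called. Acat2, the cytosolic acetoacetyl-CoA thiolase of the first step, had 15.8 to 26.0 CPM in HOM and 15.9 to 20.2 CPM in WT. Fdps, farnesyl diphosphate synthase, had 4.20, 5.51 and 2.88 CPM in HOM and 2.89, 2.86 and 3.43 CPM in WT, with a log2 fold change of 0.46 (SE 0.295, edgeR adjusted p = 0.287). Ggps1, which makes the geranylgeranyl diphosphate used to anchor small GTPases to membranes, differed least in this arm, at 41.8 ± 2.5 CPM in HOM and 44.4 ± 6.76 CPM in WT (SD, n = 3 each). Reads that align to more than 1 place were not assigned to genes, and Fdps has 4 processed pseudogenes at 96.1 to 98.9% identity over at least 200 bases, so its low level, which the exons shared with Gm43738 touch as well, and that of Idi1 (2 copies at 97.7 to 100%), Ggps1 (1 copy at 97.2%) and Acat2 (97.7% identical to Acat3 over 1477 bases) are uncertain. Among the fits that each left out 1 library, Hmgcs1 was called in all 6, whereas Pmvk was not called without HOM replicate 1 (edgeR adjusted p = 0.0684) or WT replicate 2 (0.0591), Idi1 was not called without HOM replicate 1 (0.055), WT replicate 2 (0.0586) or WT replicate 3 (0.0561), and Mvd was called only without HOM replicate 2 (0.023; 0.0587 to 0.09 in the other 5 fits).

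Of the 3 genes from farnesyl diphosphate to lanosterol, 1 was called lower. Sqle, squalene epoxidase, a rate-limiting step of the later pathway, had 36.5, 28.8 and 38.2 CPM in HOM and 39.7, 68.4 and 65.9 CPM in WT (log2 fold change -0.75, SE 0.203, edgeR adjusted p = 0.0271). The groups did not overlap, but WT replicate 1 was barely above HOM replicate 3. Fdft1, squalene synthase, had 29.0 to 39.7 CPM in HOM and 39.6 to 56.6 CPM in WT, with HOM replicate 3 just above WT replicate 1 (log2 fold change -0.47, SE 0.164, edgeR adjusted p = 0.0647), and has 1 processed pseudogene at 97.4% identity. Lss, which closes squalene epoxide into lanosterol, had 20.1 to 21.6 CPM in HOM and 22.7 to 33.9 CPM in WT without overlap (log2 fold change -0.44, SE 0.161, edgeR adjusted p = 0.077). Sqle was not called without HOM replicate 1 (edgeR adjusted p = 0.0655), HOM replicate 3 (0.0521), WT replicate 2 (0.0974) or WT replicate 3 (0.0894), nor with Y-linked reads as a covariate (0.0829). Lss was called without WT replicate 1 (edgeR adjusted p = 0.0412). Both Lss (0.0473) and Fdft1 (0.012) were called when no filter on low counts was applied. That fit called more genes of any kind, 4054 against 2980 with the filter.

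After lanosterol 5 of 8 genes were called lower, among them Cyp51, Msmo1 and Nsdhl, whose decreases lay within 1 SE of that of Hmgcs1. Cyp51, the cytochrome P450 that takes the first methyl group off lanosterol, lies at chr5:4081145-4104746 (GRCm38, minus strand). It had 54.3, 58.5 and 62.1 CPM in HOM and 113, 162 and 162 CPM in WT. Every HOM library was well below every WT library, with means of 58.3 ± 3.90 and 146 ± 28.4 CPM (SD, n = 3 each), 2.49-fold lower in HOM (log2 fold change -1.32, SE 0.152, edgeR adjusted p = 0.00084).

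The 3 genes of the enzyme complex that removes the remaining pair of methyl groups were all called lower. Msmo1, its oxidase, at chr8:64718139-64733792 (GRCm38, minus strand), had 57.5, 56.4 and 60.9 CPM in HOM and 103, 160 and 158 CPM in WT (2.41-fold lower, log2 fold change -1.27, SE 0.165, edgeR adjusted p = 0.00121). Nsdhl, the dehydrogenase that follows, on the X chromosome at chrX:72918557-72958514 (GRCm38, plus strand), had 6.15, 7.63 and 6.15 CPM in HOM and 13.8, 17.3 and 14.7 CPM in WT (2.28-fold lower, log2 fold change -1.19, SE 0.187, edgeR adjusted p = 0.00285). Hsd17b7, the keto reductase, had 17.8, 18.8 and 21.7 CPM in HOM and 28.7, 32.0 and 35.6 CPM in WT (log2 fold change -0.72, SE 0.143, edgeR adjusted p = 0.00735). No library of either group crossed into the range of the other for any of the 3 genes.

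Of the last steps, Sc5d was called lower. This sterol desaturase had 30.9, 30.2 and 27.0 CPM in HOM and 40.0, 55.0 and 56.6 CPM in WT (log2 fold change -0.78, SE 0.152, edgeR adjusted p = 0.00687). Dhcr7, the reductase that yields cholesterol from its direct precursor, had 4.48, 4.03 and 4.84 CPM in HOM and 5.90, 9.54 and 7.11 CPM in WT. Its groups did not overlap, but it missed the threshold (log2 fold change -0.75, SE 0.243, edgeR adjusted p = 0.053). It was called when no filter on low counts was applied (0.0332), a fit that called more genes of any kind. Ebp, the sterol isomerase, had 13.9 to 16.6 CPM in HOM and 13 to 21.1 CPM in WT, with a log2 fold change of -0.05 (SE 0.207). Tm7sf2, a sterol reductase, had 6.15, 4.56 and 4.19 CPM in HOM and 3.12, 4.45 and 3.05 CPM in WT, a log2 fold change of 0.50 (SE 0.27, edgeR adjusted p = 0.215). Cyp51, Msmo1, Nsdhl, Hsd17b7 and Sc5d were called in all 6 fits that left out 1 library.

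**Figure D2:**
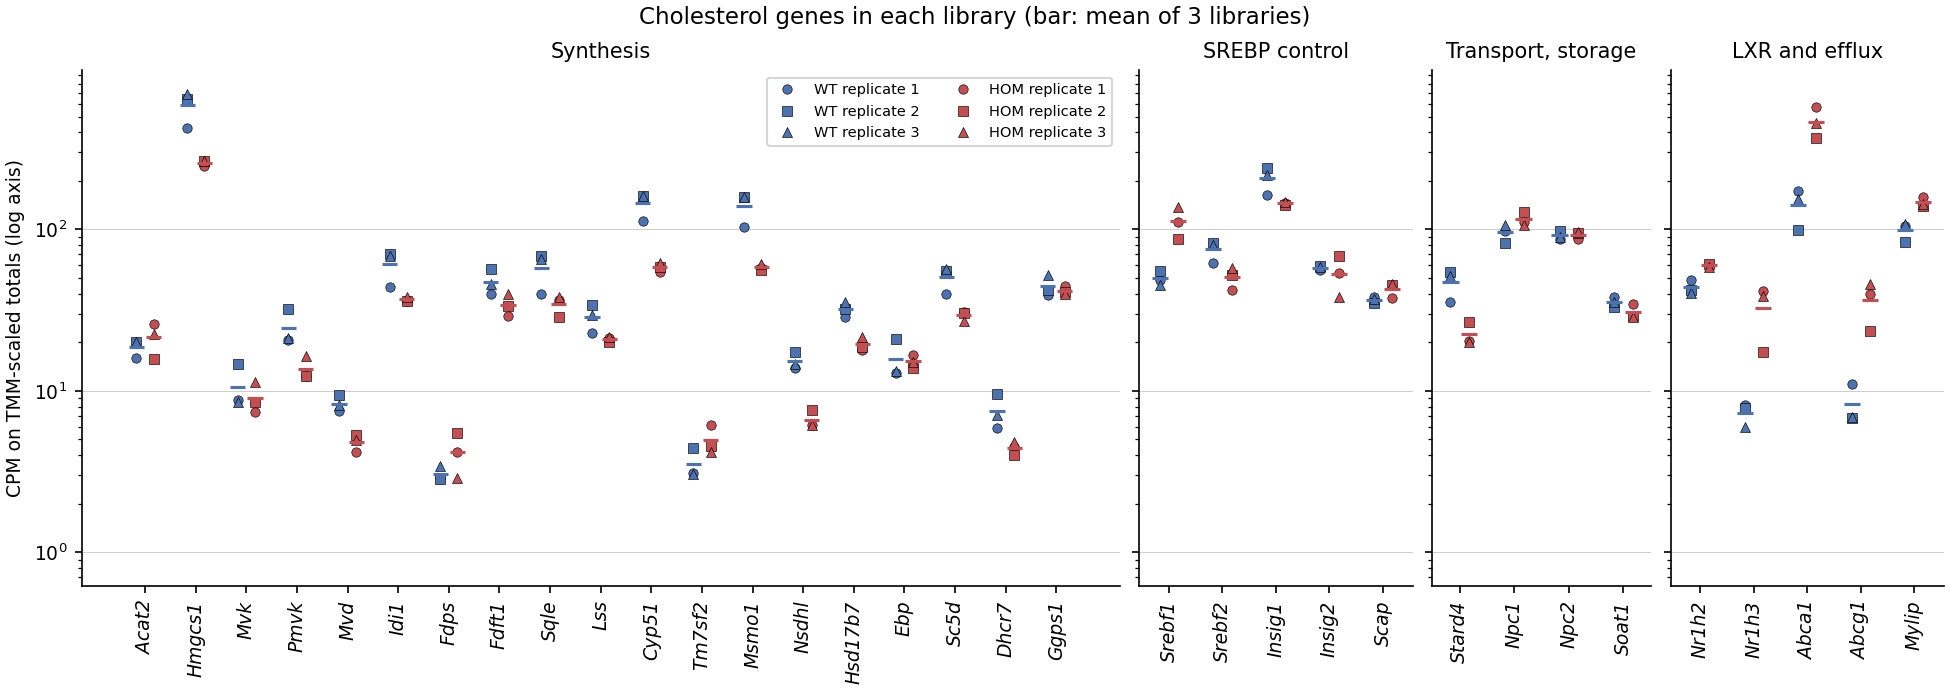
CPM on a log axis for each gene and library, with WT in blue and HOM in red, symbols for replicates 1 to 3 and bars at the mean of 3 libraries. HOM points lie close together and below all WT points for Hmgcs1, Cyp51 and Msmo1, WT replicate 1 (blue circle) is the lowest WT point of most synthesis genes, and the order is inverted for Srebf1 and the LXR and efflux genes.

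Summed over the 19 synthesis genes, a measure in which Hmgcs1 weighs most, the level was 664, 665 and 701 CPM in the HOM libraries and 989, 1456 and 1468 CPM in the WT libraries. The HOM libraries were nearly level, and the WT libraries were not. WT replicate 1 had the lowest WT value for 16 of the 19 synthesis genes and WT replicate 2 the highest for 14. Libraries with and without Y-linked reads were also compared apart, without a test, over all 19 synthesis genes. In the libraries without Y-linked reads (HOM replicates 1 and 3 against WT replicate 1) 13 of the 19 were lower in HOM and 6 higher, with a median log2 ratio of -0.247. In those with Y-linked reads (HOM replicate 2 against WT replicates 2 and 3) 17 were lower and 2 higher, with a median of -0.847. In the pair with high Gm42418 17 of the 19 were lower (median -0.823), and in the 4 libraries with low Gm42418 14 were lower (median -0.499). For 12 of the 19, the 10 called genes with Lss and Dhcr7, the groups do not overlap. Their direction in any such split is fixed, and only the size can vary. The other 7 could go either way. Without Y-linked reads Fdft1 was lower in HOM, and Acat2, Mvk, Fdps, Tm7sf2, Ebp and Ggps1 were higher. With Y-linked reads Fdps and Tm7sf2 were higher and the rest lower. The median of the 10 called genes was -0.627 without Y-linked reads (from -0.0873 for Sqle to -1.16 for Nsdhl) and -1.08 with them. WT replicate 1 was the only WT library without Y-linked reads, so this gap cannot be told apart from the low level of that library. The pair with high Gm42418 likewise set 1 library against 1.

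Of the 5 genes that control SREBP, 1 was called higher and 2 lower, and both SREBP genes were called, in opposite directions. Srebf1 encodes SREBP-1, which in most tissues favours fatty acid synthesis and is itself a target of LXR. It lies at chr11:60199089-60222581 (GRCm38, minus strand) and had 111, 87.3 and 138 CPM in HOM and 48.5, 55.3 and 45.6 CPM in WT. The lowest HOM library was above the highest WT library, with means of 112 ± 25.3 and 49.8 ± 5 CPM (SD, n = 3 each), 2.25-fold higher in HOM (log2 fold change 1.17, SE 0.165, edgeR adjusted p = 0.00182). Gene counts do not separate its transcripts from different starts. Srebf2, which encodes SREBP-2, the main activator of cholesterol synthesis genes, had 42.4, 52.6 and 58.1 CPM in HOM and 62.3, 83.0 and 80.6 CPM in WT (log2 fold change -0.56, SE 0.152, edgeR adjusted p = 0.0276).

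Insig1, a retention protein whose own gene is switched on by SREBP, had 146, 141 and 149 CPM in HOM and 164, 240 and 219 CPM in WT (log2 fold change -0.51, SE 0.146, edgeR adjusted p = 0.0323). The groups did not overlap, and WT replicate 1 was again the WT library closest to the HOM range. Insig2, its relative, had 53.4, 68.2 and 38.2 CPM in HOM and 56.1, 59.0 and 58.7 CPM in WT, so its HOM libraries lay on both sides of the WT range (log2 fold change -0.12, SE 0.181). Scap, the escort of SREBP, had 37.6 to 45.8 CPM in HOM and 34.8 to 38.4 CPM in WT (log2 fold change 0.22, SE 0.123, edgeR adjusted p = 0.23). Srebf1 was called in all 6 fits that left out 1 library, whereas Srebf2 was not called without HOM replicate 1 (edgeR adjusted p = 0.0993), WT replicate 2 (0.0914) or WT replicate 3 (0.0827) and Insig1 was not called without HOM replicate 1 (0.0911), HOM replicate 3 (0.0847), WT replicate 2 (0.104) or WT replicate 3 (0.0874). With Y-linked reads as a covariate neither was called (0.0756 for Srebf2 and 0.0984 for Insig1).

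Among the 4 transport and storage genes, 1 was called lower. Stard4, a soluble protein that ferries sterol between membranes and whose gene is an SREBP target, had 20.4, 26.9 and 20.0 CPM in HOM and 35.3, 54.8 and 51.7 CPM in WT. The groups did not overlap, and the level was 2.09-fold lower in HOM (log2 fold change -1.07, SE 0.189, edgeR adjusted p = 0.00473), a call found in all 6 fits that left out 1 library. Npc1 and Npc2, which together release cholesterol from the lysosome, were not called: Npc1 had 116 ± 11.9 CPM in HOM and 95.8 ± 12.1 CPM in WT, and Npc2 had 92.8 ± 4.91 CPM in HOM and 91.9 ± 5.65 CPM in WT (SD, n = 3 each). Soat1, which esterifies cholesterol for storage in droplets, had 28.9 to 34.4 CPM in HOM and 32.9 to 38.4 CPM in WT (log2 fold change -0.22, SE 0.128, edgeR adjusted p = 0.256).

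All 5 LXR and efflux genes were called higher, and in each of them every HOM library lay above every WT library. Nr1h3 encodes LXR-alpha, the form of the receptor rich in liver, fat and macrophages, and lies at chr2:91184061-91202834 (GRCm38, minus strand). It had 41.3, 17.4 and 38.9 CPM in HOM and 8.22, 7.79 and 5.97 CPM in WT. HOM replicate 2 was far below the other HOM libraries and still above every WT library. The means were 32.5 ± 13.1 and 7.33 ± 1.19 CPM (SD, n = 3 each), 4.41-fold higher in HOM (log2 fold change 2.14, SE 0.309, edgeR adjusted p = 0.00205). Nr1h2, which encodes the widely expressed LXR-beta, had 60.0, 61.3 and 58.9 CPM in HOM and 48.6, 42.3 and 40.6 CPM in WT, a smaller difference (1.37-fold, log2 fold change 0.45, SE 0.114, edgeR adjusted p = 0.0202).

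Abca1, the pump that loads cholesterol onto apolipoprotein A-I, lies at chr4:53030787-53159895 (GRCm38, minus strand) and had 572, 370 and 456 CPM in HOM and 172, 99.8 and 155 CPM in WT. Even its lowest HOM library lay far above its highest WT library, and the mean was 3.28-fold higher in HOM (log2 fold change 1.71, SE 0.219, edgeR adjusted p = 0.00118). Abcg1, which passes cholesterol on to high-density lipoprotein, lies at chr17:31057675-31117988 (GRCm38, plus strand) and had 40.1, 23.6 and 45.8 CPM in HOM and 11.1, 6.84 and 6.86 CPM in WT (4.36-fold, log2 fold change 2.12, SE 0.274, edgeR adjusted p = 0.00118). Mylip, the ligase that marks lipoprotein receptors for degradation, had 158, 140 and 143 CPM in HOM and 105, 83.1 and 108 CPM in WT (1.49-fold, log2 fold change 0.57, SE 0.127, edgeR adjusted p = 0.012). HOM replicate 2 was the lowest HOM library in 4 of the 5 genes, Nr1h2 being the exception, and WT replicate 1 the highest WT library in 4, Mylip being the exception.

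Summed over the 5 genes, the level was 872, 613 and 742 CPM in HOM and 344, 240 and 316 CPM in WT, with Abca1 the largest term. Since the groups of these genes do not overlap, their direction is the same in any split of the libraries. The size of the median log2 ratio was 1.58 among libraries without Y-linked reads and 1.34 among those with them, and 1.16 in the pair with high Gm42418 and 1.66 in the 4 libraries with low Gm42418. Here too a split by Y-linked reads or Gm42418 cannot be told apart from the level of single libraries. Nr1h3, Abca1, Abcg1 and Mylip were called in all 6 fits that left out 1 library, with a highest edgeR adjusted p of 0.0445, for Mylip. Nr1h2 was not called without HOM replicate 1 (edgeR adjusted p = 0.0532), HOM replicate 3 (0.0572), WT replicate 2 (0.0552) or WT replicate 3 (0.0627), nor with Y-linked reads as a covariate (0.0551).

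**Figure D3:**
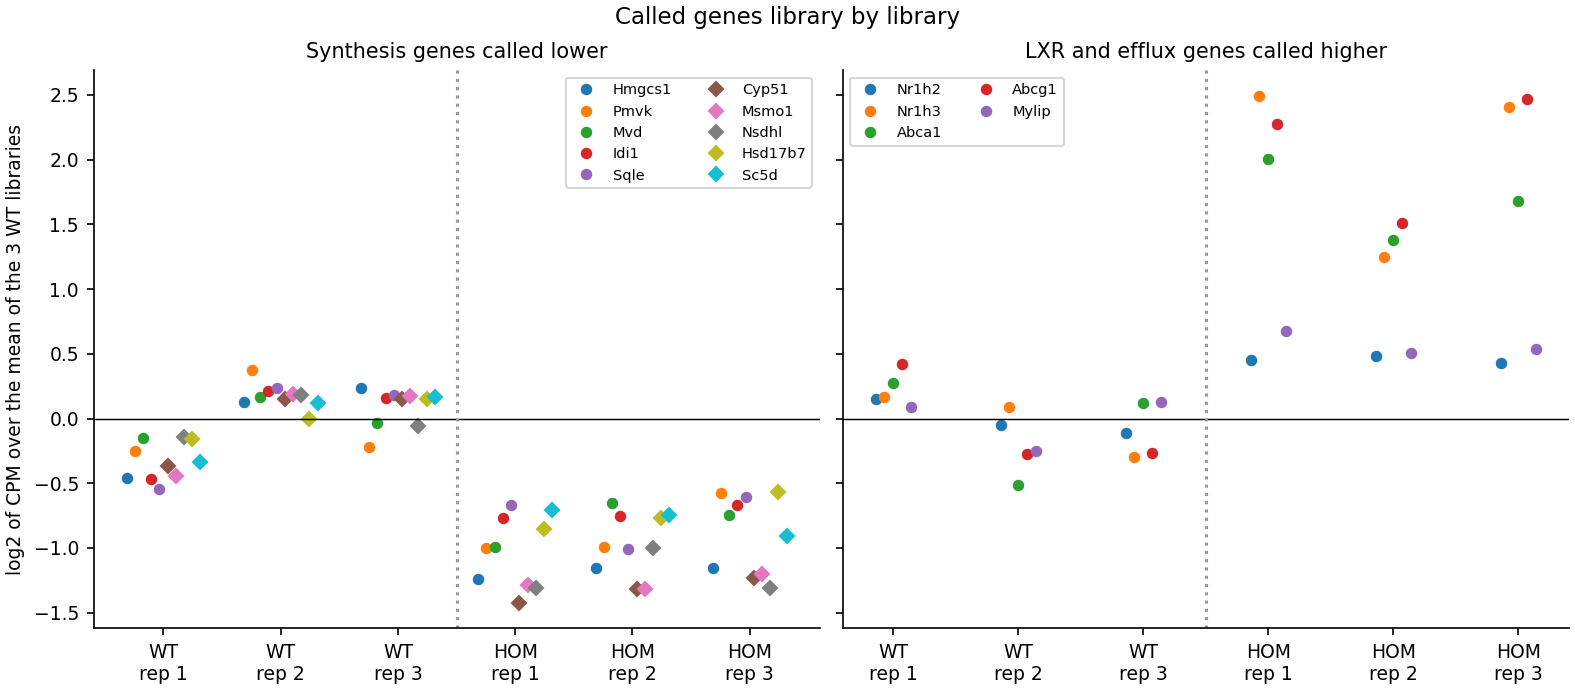
Log2 of each library's CPM over the mean of the 3 WT libraries, for the 10 called synthesis genes and the 5 LXR and efflux genes; each colour and symbol is a gene. The synthesis genes lie below 0 in WT replicate 1 and further below in all 3 HOM libraries, and Nr1h3, Abca1 and Abcg1 lie lower in HOM replicate 2 than in the other HOM libraries.

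Markers of several cell types moved with genotype as well. Of 8 satellite cell markers 6 were called lower in HOM, and of 7 markers of fibro-adipogenic cells 4 were called lower and 1 higher (summed 1317 to 1994 CPM in HOM and 3939 to 4263 CPM in WT). All 6 markers of proliferating cells were called lower, with sums of 29.4 to 34.3 CPM in HOM and 85.3 to 315 CPM in WT, highest in WT replicate 2. Of 8 adipocyte markers 6 were tested and 5 called higher (552 to 1024 CPM in HOM and 290 to 417 CPM in WT), while Lep had 0 reads in all HOM libraries and, in WT, Cidec had 0 reads in 2 libraries and Pck1 in 1. Fabp4 was the largest term of that sum, at 354, 407 and 615 CPM in HOM and 293, 180 and 241 CPM in WT. Adipoq had 9.09, 6.47 and 37.2 CPM in HOM and 0.231, 0.318 and 0.508 CPM in WT. Cidec had 18.3, 10.9 and 64.7 CPM in HOM, and Pck1 6.57, 3.82 and 47.7 CPM. In WT they had at most 0.127 and 0.318 CPM. The tested adipocyte marker that was not called was Adipor2 (log2 fold change 0.52). Of 8 macrophage markers 6 were tested and 2 called higher, and their summed ranges overlapped (42.5 to 72.7 CPM in HOM and 34.0 to 60.6 CPM in WT), with Itgam at 0 in 2 libraries. Sums of endothelial markers overlapped too (237 to 477 CPM in HOM and 311 to 548 CPM in WT), and calls among the Schwann cell markers (1 higher, 2 lower) and pericyte markers (1 higher, 1 lower) went both ways. The part of these cell types in the values of the cholesterol genes was not tested.

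Genes differ in length, so the levels of the 33 genes were ranked only as CPM per kilobase of exon. The length is that of all annotated exons of a gene merged, which can exceed that of its main transcript. On that scale Hmgcs1 was the highest of the 33 in WT, at 128 (93.2 to 151 over the 3 libraries), followed by Insig1 at 67.1 (53.0 to 77.6), and their WT ranges did not overlap. Cyp51 at 33 (25.5 to 36.8), Mylip at 30.5 (25.7 to 33.4) and Msmo1 at 22.9 (16.8 to 26.0) came next, with ranges that overlapped between neighbours. The lowest in WT were Abcg1 at 1.13, Tm7sf2 at 0.804 and Fdps at 0.727. Tm7sf2 and Fdps are uncertain here for their shared exons, and Fdps also for its pseudogenes. In HOM, Hmgcs1 fell to 56.3 and Abca1 rose from 13.7 to 45.0, so that Abca1 stood beside Insig1 (47.0) and Mylip (45.5) per length.

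A wider list of 102 genes was drawn from textbook knowledge of the same pathway, with earlier results of these data known. It was read from the same fit, and 98 were tested. Of the 98, 11 (11.2%) were called higher and 7 (7.14%) lower, with 9.67 and 11.5% over all genes tested, and the median log2 fold change was 0.0239. The counts ran from 4 (without WT replicate 3) to 14 higher and from 3 to 13 lower (both upper values without HOM replicate 2) when single libraries were left out. Proteins that process SREBP or degrade sterol enzymes were mostly not called: of 16, 1 was higher, Ufd1, a partner of the segregase that extracts proteins from the endoplasmic reticulum (log2 fold change 0.44, edgeR adjusted p = 0.0217). Of 25 sterol transport genes 5 were higher, namely the oxysterol-binding protein relatives Osbp2 (1.11, edgeR adjusted p = 0.0137), Osbpl3 (0.70, 0.0173), Osbpl5 (0.49, 0.0231) and Osbpl11 (0.38, 0.0465, named after its value was seen) and the late endosomal protein Stard3 (0.55, 0.0427). Osbp2 had 6.29, 7.32 and 7.20 CPM in HOM and 3.36, 2.23 and 3.94 CPM in WT, without overlap.

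Of 11 tested sterol-modifying enzymes 2 were higher and 1 lower. Cyp7b1, which hydroxylates oxysterols on the way to bile acids, had 7.97, 8.16 and 6.02 CPM in HOM and 16.2, 17.8 and 15.1 CPM in WT (log2 fold change -1.14, SE 0.184, edgeR adjusted p = 0.0031). Cyp27a1, which hydroxylates the side chain of cholesterol to make an LXR ligand, moved the other way, with 24.2, 21.6 and 19.0 CPM in HOM and 15.7, 10.7 and 11.4 CPM in WT (0.77, SE 0.184, edgeR adjusted p = 0.0167). Lbr, the lamin B receptor of the inner nuclear membrane, which is also a sterol reductase like Tm7sf2, had 187, 136 and 151 CPM in HOM and 105, 117 and 122 CPM in WT (0.46, SE 0.138, edgeR adjusted p = 0.0396). In the branch that makes and attaches isoprenoids 1 of 14 was called, Fntb, the beta subunit of farnesyltransferase (-0.72, edgeR adjusted p = 0.032).

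Of 7 lipoprotein receptor genes Lrp1, a large endocytic receptor, was higher (484, 425 and 488 CPM in HOM against 297, 247 and 281 CPM in WT; log2 fold change 0.76, edgeR adjusted p = 0.00396). Sorl1, a sorting receptor, was lower (14.8, 30.0 and 15.8 CPM in HOM against 55.2, 43.9 and 51.8 CPM in WT; -1.30, edgeR adjusted p = 0.00557). Of 11 tested further LXR targets and partners, 1 was higher and 2 lower. Abca7, a relative of Abca1, had 32.2, 24.2 and 31.2 CPM in HOM and 14.6, 12.2 and 14.5 CPM in WT (1.08, edgeR adjusted p = 0.00232), whereas the LXR target Arl4c (-1.20, edgeR adjusted p = 0.0236) and the coactivator Ncoa1 (-0.65, 0.0178) were lower.

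Of 14 fatty acid genes that SREBP-1 is known to activate, 1 was higher and 2 lower. Elovl6, which lengthens palmitate, had 18, 24.3 and 20.4 CPM in HOM and 45.4, 53.4 and 58.9 CPM in WT (log2 fold change -1.32, SE 0.152, edgeR adjusted p = 0.00084). Scd1, the stearoyl-CoA desaturase, had 295, 256 and 236 CPM in HOM and 158, 177 and 194 CPM in WT (0.57, SE 0.133, edgeR adjusted p = 0.0146), and Elovl5, a lengthening enzyme of unsaturated fatty acids, was slightly lower (-0.41, edgeR adjusted p = 0.0355). Cyp7b1, Lrp1, Sorl1, Abca7 and Elovl6 were called in all 6 fits that left out 1 library. Of the others named from the wider list, Stard3 and Elovl5 were called in 0 of the 6 fits and Lbr, Fntb, Osbpl11 and Arl4c in 1 of 6, and all lost the call in at least 1, with a highest edgeR adjusted p of 0.0503 for Osbp2 (without WT replicate 1), 0.0624 for Cyp27a1 (HOM replicate 1), 0.0695 for Osbpl3 (HOM replicate 3), 0.0714 for Scd1 (WT replicate 1), 0.0748 for Ncoa1 (WT replicate 1), 0.0751 for Ufd1 (WT replicate 1), 0.0758 for Osbpl5 (WT replicate 3), 0.0774 for Arl4c (HOM replicate 3), 0.0969 for Fntb (HOM replicate 1), 0.1 for Elovl5 (HOM replicate 1), 0.129 for Stard3 (WT replicate 1), 0.145 for Osbpl11 (HOM replicate 1) and 0.15 for Lbr (WT replicate 1).

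**Figure D4:**
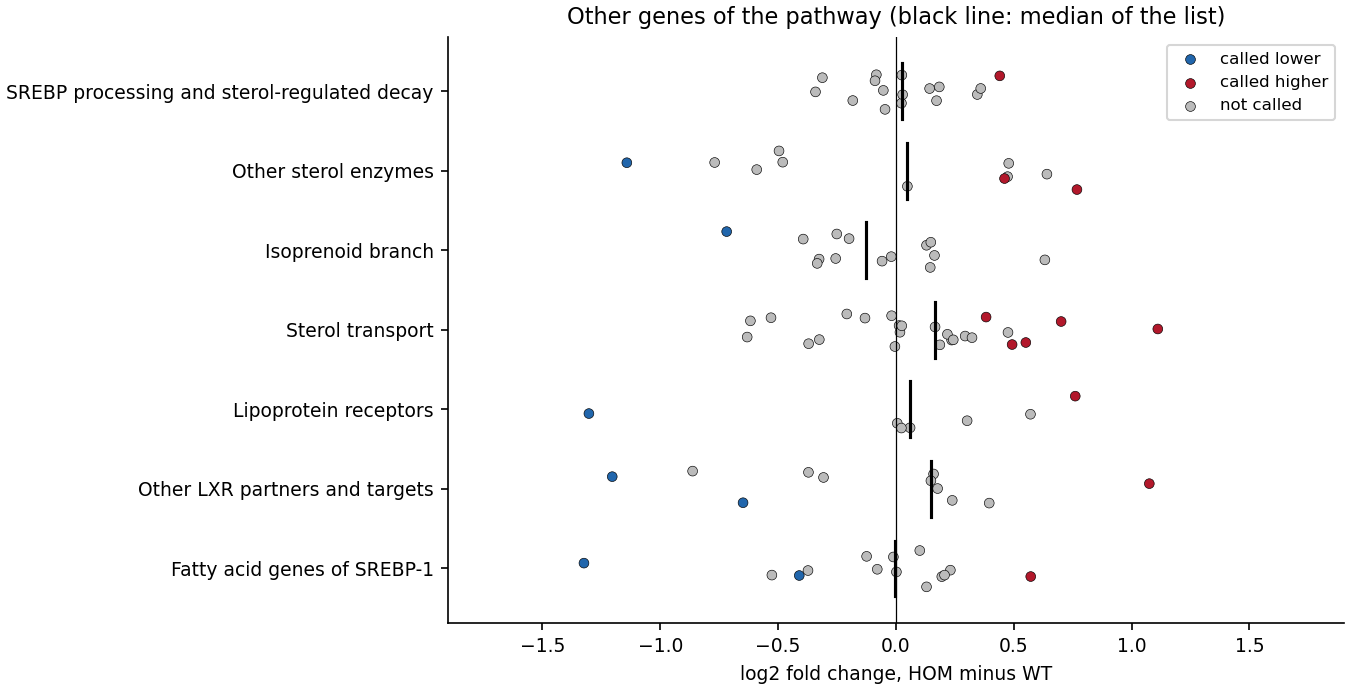
Log2 fold change of HOM minus WT for the 98 tested genes of the 7 wider lists; each point is a gene, coloured where called at an adjusted p under 0.05, and the black line is the median of its list. The medians lie between -0.129 and 0.166, and called genes are found on both sides of 0 in 4 of the 7 lists.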

How the data were processed

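Each library's file, as the authors deposited it, holds whole-number counts of reads by Ensembl gene, made from stranded total RNA libraries depleted of ribosomal RNA, per the labels' protocols. Per the submitters' processing notes, the work used mm10, with HTSeq 0.6.1, STAR 2.5.2b and Trimmomatic 0.32 in roles that are not stated, and neither the counting's strand setting nor its annotation was given in the sources used here. Libraries were grouped by their titles, and GENCODE M21 gave symbols for 38861 of 39059 genes. Summary lines for reads without a gene, 45 to 49.8% of each file, stayed out of totals.

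Counts were tested in R 4.3.3 with edgeR 4.0.16: filterByExpr (minimum count 10, total 15), TMM factors, quasi-likelihood test without covariates, and Benjamini-Hochberg adjustment over 14099 genes (threshold 0.05). The SE is the log2 fold change divided by the square root of F. Counts were simulated with 200 of 13939 genes changed and the same dispersion (spread between libraries) for all genes. In them 75.5% of 2-fold and 100% of 4-fold changes were recovered, and 6.95% of the called genes were unchanged ones. Dispersion was not held common in the fit of the data, so these rates need not hold there.

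The members and lists were chosen with earlier results of these data known. Named are all 33 members and, per wider list, up to 4 called genes of smallest p. Near copies were found with minimap2 2.31 (at least 95% identity over 200 bases). Alternatives were other scalings, filters, DESeq2 1.42.0, a replicate block, Y-linked reads as covariate, and omission of libraries. No pair of libraries of a genotype agreed within sampling noise.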

Additional observations from a re-analysis of the deposited data

How the results depend on the processing

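Over all genes, 2980 were called. The count was 4054 with no low-count filter, 1932 with Y-linked reads as a covariate and 2437 with the replicate block. When each library was left out in turn, it was 1576 to 4002. Of the 33 cholesterol genes, the 13 called lower became 7 to 13 when single libraries were left out, with the fewest without HOM replicate 1 or WT replicate 2 and 8 without WT replicate 3, and 9 with Y-linked reads as a covariate. The 6 called higher were 5 or 6 in every fit. All 19 called cholesterol genes were called with DESeq2 size factors, with library totals only, with no low-count filter and with a filter of 1 CPM in 3 libraries, and 12 of them in all 6 fits that left out 1 library. The DESeq2 Wald test called 18 (Mvd lost, adjusted p = 0.0646), the fit with Y-linked reads as a covariate 14 (Mvd lost at 0.0718) and the fit without both replicates 2 called 17, without Sqle (0.0736) and Insig1 (0.0829). In that last fit Pmvk moved to a log2 fold change of -0.54. Replicate numbers did not pair the libraries: deviations of same-numbered libraries from their group means correlated at -0.0359, 0.0224 and -0.0962 across genes, and 1 of 3 HOM libraries correlated best with its own number. With the replicate block 18 of the 19 were called, Insig1 being lost (adjusted p = 0.0537).

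Of the wider list, the 11 called higher became 7 with the replicate block and 4 to 14 when single libraries were left out, and the 7 called lower became 13 without both replicates 2 and 3 to 13 when single libraries were left out. Arl4c moved to -1.81 without HOM replicate 2. Reversals of sign were limited to genes that were not called: Mvk (0.11 without both replicates 2; -0.391 to 0.0718 over the fits that left out 1 library), Ebp (0.272 without both replicates 2; -0.178 to 0.211, above 0 also at 0.0192 without HOM replicate 2), Ggps1 (-0.177 to 0.0413), Insig2 (-0.34 to 0.0759) and Npc2 (-0.0262 to 0.0655, below 0 in 4 of 6). The causes were not tested. Depth limits the genes of few reads most, Fdps (174 reads over the 6 libraries), Tm7sf2 (198), Dhcr7 (274) and Mvd (306), and with 3 libraries a group a missed threshold does not show that a gene did not differ.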
